A study of Mus musculus with 24 samples.

Results

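Follicular helper T cells are CD4+ T cells that enter B cell follicles and help B cells, and 7 of the genes that define them are described here across every group of the series: the transcription factor genes Bcl6 and Ascl2, the receptor genes Cxcr5 and Icos, the cytokine gene Il21, the adaptor gene Sh2d1a and the secreted antagonist gene Sostdc1. They were taken by symbol from a table of expected counts for 55025 gene symbols. All 7 were found, and all 7 are among the 20174 genes that passed the filter on low counts and were tested.

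RNA was sequenced from cells sorted by FACS out of the spleen and the tumor of mice whose pancreas had been seeded with M8 live passage organoids to give tumors there. The 24 libraries form 8 groups of 3, made by tissue (spleen or tumor), sorted population (CD45+ CD4+, below CD4, or CD45+ CD8+, below CD8) and treatment (vehicle or LCL161). LCL161 is a small molecule that mimics the protein SMAC and blocks cIAP1 and cIAP2, inhibitors of apoptosis that also restrain the alternative NF-kB pathway. Oral doses of 75 mg/kg started on day 4 and were repeated every 3 days, and the tissues were taken on day 12, after 3 doses. All animals of all 8 groups had the genotype TCR alpha-/-, a disrupted alpha chain locus of the T cell receptor, and no wild-type group is analysed here. The sort used no antibody to a T cell receptor, as far as the labels state it. The labels number the libraries of a group 1 to 3 and do not say whether each came from its own animal, so the spread between them may be partly technical.

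As background, an activated CD4+ T cell takes the follicular helper path when the repressor BCL6 is raised over its opponent BLIMP-1, the product of Prdm1. ASCL2 favors expression of Cxcr5, and CXCR5, the receptor for the chemokine CXCL13, takes the cell into the B cell follicle. There ICOS, a costimulatory receptor related to CD28, and SAP, the SLAM-associated adaptor encoded by Sh2d1a, sustain contact with B cells, and the cytokine IL-21 drives B cells to divide and to form germinal centers. SOSTDC1, an antagonist of BMP and WNT signals, is made by a subset of follicular helper T cells in mice. Several of these genes are not private to that cell: B cells also express Cxcr5, germinal center B cells and some dendritic cells express Bcl6, and activated and regulatory T cells express Icos.

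The sorted populations matched their labels in the lineage genes, and libraries of both populations held marker RNA of other cells. Cd4 was 688 to 1430.4 CPM (counts scaled to a common library size, adjusted by TMM) in the 12 CD4 libraries and 7.07 to 31.7 CPM in the 12 CD8 libraries, and Cd8a was at most 3.98 CPM in CD4 libraries and at least 565 CPM in CD8 libraries. Trac, which encodes the constant part of that alpha chain, had 63.2 to 1082 CPM in CD4 libraries and 9.30 to 35.5 CPM in CD8 libraries. The labels do not say which part of the gene was removed, so these reads do not check the genotype. The summed level of 7 T cell markers was 1565 to 4867 CPM over the 24 libraries. The summed level of 12 B cell markers was 828 to 2795 CPM in the 12 spleen libraries and 81.6 to 399 CPM in the 12 tumor libraries, with no overlap and with no marker at 0 in any group. Markers of gamma delta T cells (6 genes) summed to 74.4 to 2610 CPM in CD4 libraries and 1255 to 3345 CPM in CD8 libraries, and conventional dendritic cell markers (7 genes) reached 1933 CPM in spleen CD8 vehicle libraries. The 11 follicular helper markers, which include the 7 genes, summed to 1324 to 4573 CPM in spleen CD4, 413 to 1265 CPM in tumor CD4, 196 to 323 CPM in spleen CD8 and 233 to 661 CPM in tumor CD8 libraries. Library totals were 15455728 to 25145426 counts.

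**Figure D1:**
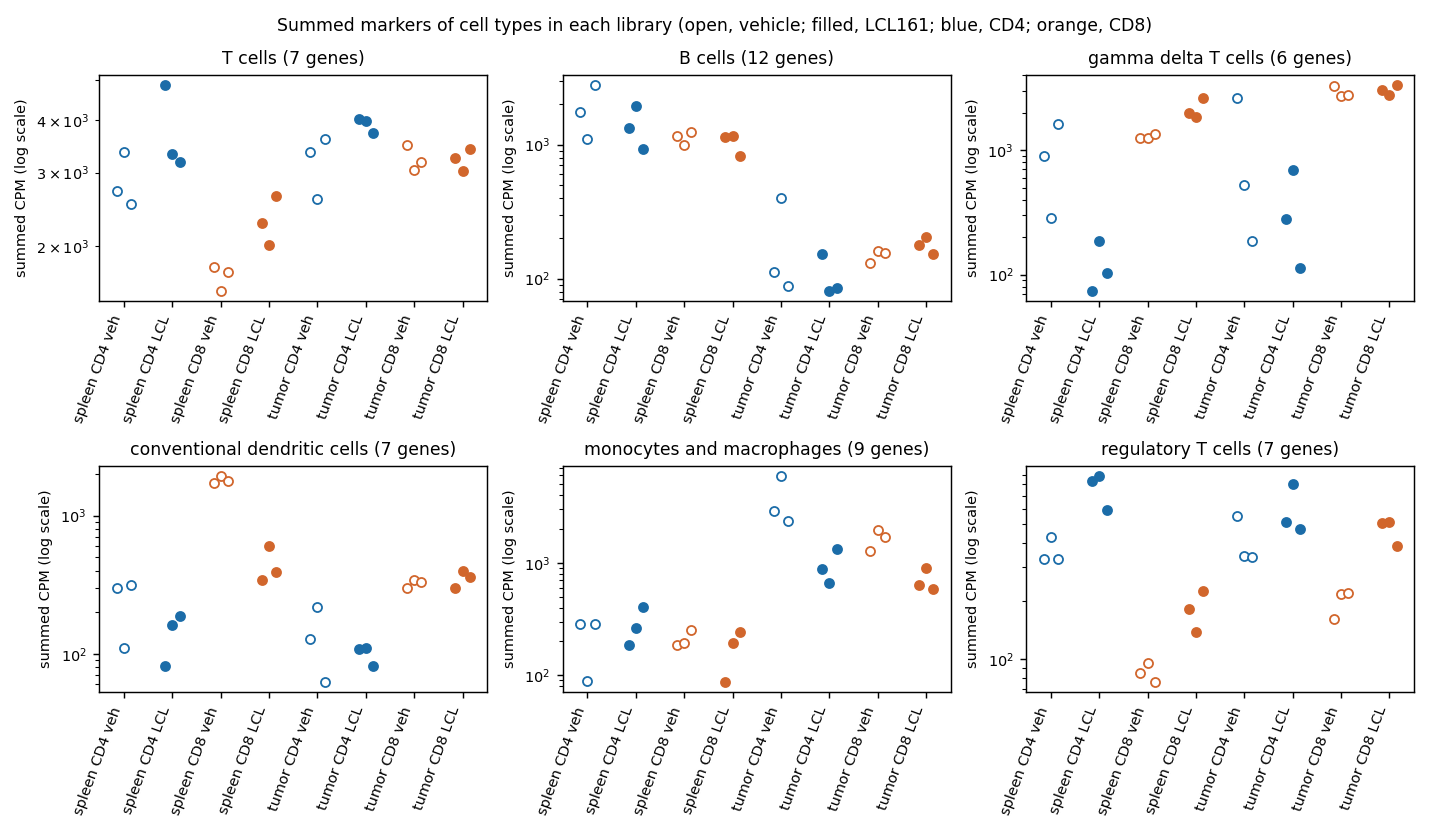
Summed CPM of marker lists of 6 cell types (log scale), 1 point per library, 3 libraries in each of the 8 groups; open points are vehicle and filled points LCL161, blue CD4 and orange CD8. The B cell sums separate every spleen library (828 CPM or more) from every tumor library (399 CPM or less), and the conventional dendritic cell sums are 1715 to 1933 CPM in spleen CD8 vehicle libraries against 344 to 606 CPM in spleen CD8 LCL161 libraries.

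The 7 genes together were highest in spleen CD4 libraries. In those 6 libraries each of the 7 was detected in every library, whereas Ascl2 and Sostdc1 were at or near 0 in all other groups. In sorted bulk RNA, fewer follicular helper cells and less RNA per cell cannot be told apart. Set per kilobase of exon, which allows levels to be compared between genes, the order in spleen CD4 vehicle libraries was Sostdc1 (96.8 ± 91.3 CPM per kb, mean ± SD, n = 3), Cxcr5 (91.1 ± 40.1), Icos (66.9 ± 28.9), Sh2d1a (29.1 ± 7.87), Il21 (20.4 ± 12.0), Ascl2 (9.83 ± 7.86) and Bcl6 (8.52 ± 3.55). Neighbors in this order lie within their spread, and Sostdc1 varied most, from 27.6 to 200.3 CPM per kb.

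**Figure D2:**
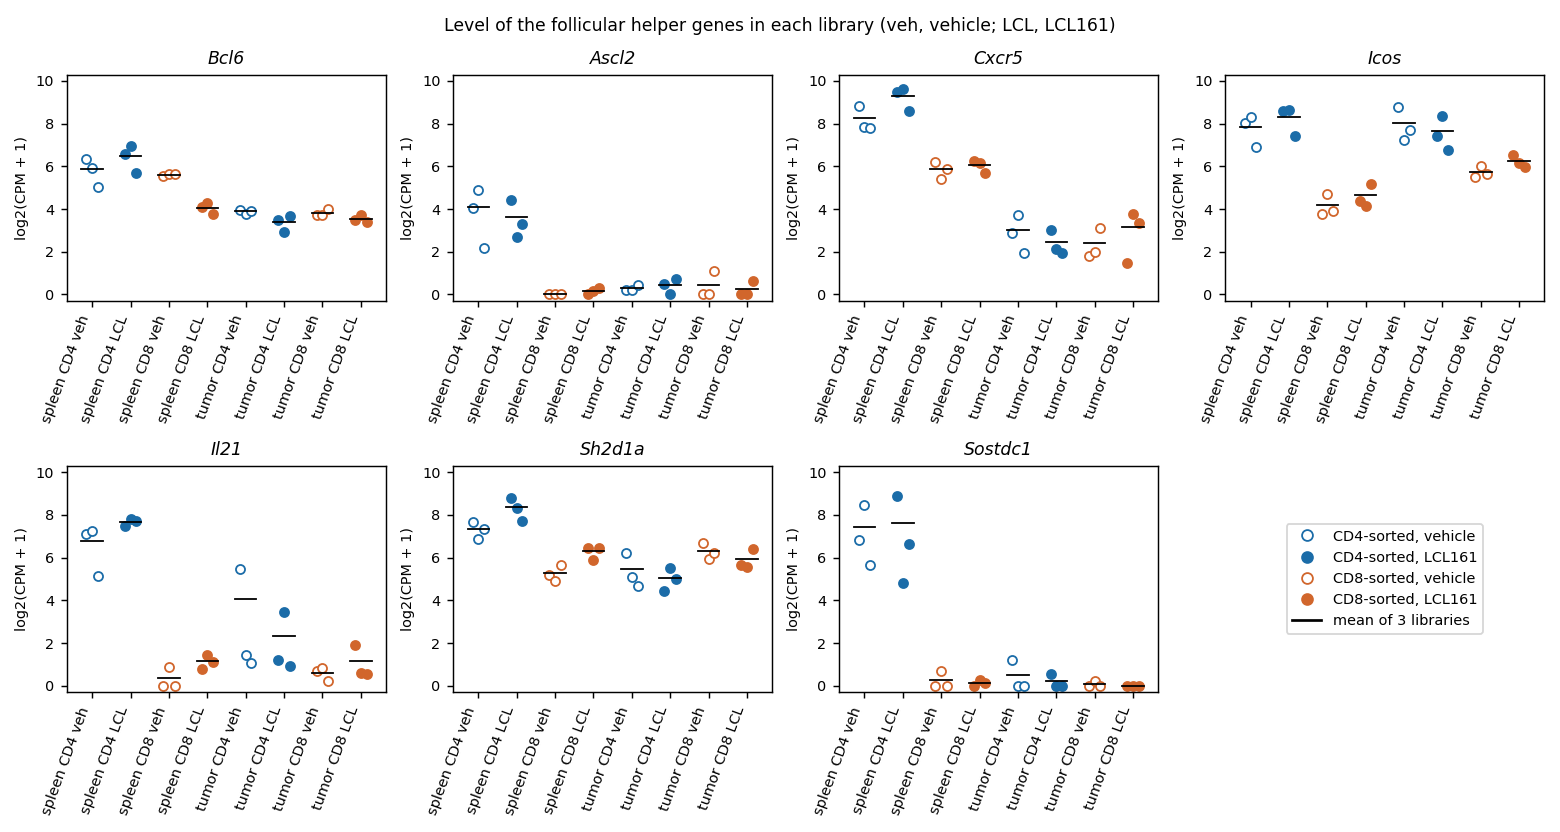
Level of each of the 7 genes as log2(CPM + 1) in each library (points) with the group mean of the 3 CPM values on the same scale (line), in 8 groups. Points of Ascl2 and Sostdc1 lie near 0 outside the spleen CD4 groups, whereas Icos stays between 108 and 436 CPM in all 12 CD4 libraries.

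Bcl6 encodes the repressor that sets the follicular helper program, and its gene lies on the minus strand at chr16:23965052-23988852 (GRCm38). In spleen CD4 vehicle libraries Bcl6 was 79.0, 60.5 and 31.8 CPM, and in spleen CD4 LCL161 libraries 94.0, 122 and 50.6 CPM. In spleen CD8 vehicle libraries it was 46.1, 48.2 and 48.6 CPM, and in spleen CD8 LCL161 libraries 15.9, 18.5 and 12.7 CPM. The spleen CD8 groups therefore did not overlap, with every LCL161 library below every vehicle library. The 12 tumor libraries ran from 6.67 to 15.2 CPM, overlapping the spleen CD8 LCL161 libraries and below the lowest library of each other spleen group. By group mean the order ran from spleen CD4 LCL161 (88.8 ± 35.9 CPM, SD, n = 3) through spleen CD4 vehicle (57.1 ± 23.8) and spleen CD8 vehicle (47.6 ± 1.32) to tumor CD4 LCL161 (9.55 ± 2.63), and the only neighbors in it whose ranges did not overlap were spleen CD8 vehicle and spleen CD8 LCL161.

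The 250 bases before 2 annotated starts of Bcl6 are shown because Bcl6 was the only one of the 7 genes to pass the test for LCL161, and those of Ascl2 and Il21 for comparison. They come from RefSeq (GRCm38.p6), whose table matched 3 of the 7 genes, and run 5′ to 3′ on the minus strand. Capitals mark matches, on either strand, to the motifs searched.
Bcl6, upstream start, chr16:23988853-23989102: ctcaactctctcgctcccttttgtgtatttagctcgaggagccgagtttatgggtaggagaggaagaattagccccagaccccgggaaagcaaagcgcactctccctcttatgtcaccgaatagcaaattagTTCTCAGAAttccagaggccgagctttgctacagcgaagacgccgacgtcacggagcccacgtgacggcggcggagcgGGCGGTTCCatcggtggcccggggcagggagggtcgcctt
Bcl6, downstream start, chr16:23981284-23981533: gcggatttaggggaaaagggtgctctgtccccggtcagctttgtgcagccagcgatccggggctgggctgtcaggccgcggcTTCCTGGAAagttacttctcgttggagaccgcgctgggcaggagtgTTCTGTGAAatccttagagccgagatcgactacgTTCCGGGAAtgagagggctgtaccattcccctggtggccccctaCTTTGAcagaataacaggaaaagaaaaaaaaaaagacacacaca
Ascl2, chr7:142969265-142969514: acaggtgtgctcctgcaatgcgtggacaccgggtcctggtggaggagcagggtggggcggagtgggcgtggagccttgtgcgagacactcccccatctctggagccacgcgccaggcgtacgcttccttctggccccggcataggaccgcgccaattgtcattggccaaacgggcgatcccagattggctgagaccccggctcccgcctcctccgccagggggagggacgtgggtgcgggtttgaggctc
Il21, chr3:37232637-37232886: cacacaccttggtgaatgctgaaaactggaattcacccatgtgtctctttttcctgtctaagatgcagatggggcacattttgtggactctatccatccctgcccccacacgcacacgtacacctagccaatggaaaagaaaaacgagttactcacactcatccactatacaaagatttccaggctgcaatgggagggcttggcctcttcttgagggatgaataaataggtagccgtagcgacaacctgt
The motifs were the E-box CAGCTG, the core TTCNNNGAA shared by BCL6 and STAT factors, the NF-kB motif GGNNNTTCC, the TCF core CTTTGA and the AP-1 motif TGANTCA. Before the upstream start of Bcl6, TTCNNNGAA matched at -118 and GGNNNTTCC at -40, counted from the start site. Before the downstream start, TTCNNNGAA matched at -168, -122 and -88 and CTTTGA at -44. The windows of Ascl2 and Il21 held none of the 5. Of 32851 such windows, 7.02% held TTCNNNGAA, 15.7% GGNNNTTCC, 13.8% CTTTGA, 13% CAGCTG and 6.75% TGANTCA. A match describes these letters only.

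Ascl2 encodes a basic helix-loop-helix factor, and its gene is at chr7:142966829-142969264 on the minus strand. Its level was 15.4, 29.0 and 3.48 CPM in spleen CD4 vehicle libraries against 20.4, 5.36 and 8.80 CPM in spleen CD4 LCL161 libraries, so the treatments overlapped. The 3 spleen CD8 vehicle libraries had no count, which at their depth allows up to 0.132 to 0.146 CPM (3 counts, counting error only). Elsewhere the highest level was 1.14 CPM, in tumor CD8 vehicle replicate 3.

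Cxcr5 lies on the minus strand at chr9:44511787-44561877. Its levels formed 3 ranges that did not overlap, in order spleen CD4, spleen CD8 and tumor. In spleen CD4 libraries it was 458, 229.7 and 223 CPM with vehicle against 722, 786 and 382 CPM with LCL161. In spleen CD8 libraries it was 73.3, 40.8 and 57.4 CPM with vehicle against 74.4, 69.8 and 50.7 CPM with LCL161. The 12 tumor libraries of both populations held 1.79 to 12.7 CPM, and none reached the lowest spleen library. The gene Bcl9l on the opposite strand overlaps an exon of Cxcr5 and had up to 1221 counts in a library. Since the sources used here give no strand setting of the counting, reads of both genes in the shared stretch cannot be told apart.

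Icos, at chr1:60977927-61000320 on the plus strand, overlapped between tumor CD4 and spleen CD4 libraries under both treatments. It was 256, 312 and 119.6 CPM in spleen CD4 vehicle libraries against 390.4, 395 and 170.2 CPM with LCL161. In tumor CD4 libraries it was 436, 149 and 206 CPM with vehicle against 171, 323 and 108 CPM with LCL161. All 4 CD4 groups overlapped. In CD8 libraries it was lower, at 12.4, 24.7 and 14.2 CPM (spleen vehicle), 20.1, 16.9 and 35.5 CPM (spleen LCL161), 44.5, 64.2 and 48.7 CPM (tumor vehicle) and 92.6, 70.3 and 60.7 CPM (tumor LCL161). Here each tumor library was above each spleen library.

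Il21, at chr3:37222759-37232636 on the minus strand, was 138, 149.6 and 34.5 CPM in spleen CD4 vehicle libraries against 176, 219.7 and 209 CPM in spleen CD4 LCL161 libraries, which did not overlap. In tumor CD4 vehicle libraries it was 43.8, 1.68 and 1.12 CPM, so that 1 library carried nearly all of the group's mean. That library, replicate 1, also had the highest Icos (436 CPM), Sh2d1a (72.7 CPM) and summed gamma delta T cell markers (2610 CPM against 519.9 and 187 CPM) of its group; whether these cells hold the Il21 reads was not tested. Tumor CD4 LCL161 libraries had 1.31, 10.1 and 0.885 CPM, and the 12 CD8 libraries 0 to 2.75 CPM. The antisense gene Gm12534 overlaps an exon of Il21 and had up to 148 counts in a library, where the strand limit given for Cxcr5 applies. The overlapping genes of Bcl6 (Gm37419), Sh2d1a (Tenm1) and Icos (Gm37039) had at most 12.5, 8 and 114.5 counts.

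Sh2d1a, at chrX:42502453-42529330 on the plus strand, was expressed in every group. It was 202, 115 and 164 CPM in spleen CD4 vehicle libraries against 447, 321 and 212 CPM with LCL161, with no overlap. In spleen CD8 libraries it was 34.8, 29.1 and 49.5 CPM with vehicle against 87.8, 58.1 and 87.1 CPM with LCL161, again with no overlap. Tumor CD4 libraries had 72.7, 33.2 and 24.5 CPM with vehicle against 20.4, 44.9 and 31.1 CPM with LCL161, and tumor CD8 libraries 103, 60.5 and 73.6 CPM and 49.7, 46.4 and 83.4 CPM. In the tumor the treatments overlapped in both populations.

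Sostdc1, at chr12:36314139-36318452 on the plus strand, had the widest spread. Spleen CD4 libraries had 112, 357 and 49.1 CPM with vehicle against 472, 26.6 and 98.5 CPM with LCL161, so that libraries of the same treatment differed more than the treatments did. Outside spleen CD4 it reached at most 1.30 CPM, in tumor CD4 vehicle replicate 1, and no tumor CD8 LCL161 library had a count, which allows up to 0.168 to 0.196 CPM.

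Within the 6 spleen CD4 libraries the genes did not all follow each other. Among 21 pairs, the largest Pearson r was that of Bcl6 and Icos (r = 0.93, exact two-sided permutation p = 0.0069, adjusted over the 21 pairs 0.146). Their Spearman rho was 0.94 (exact permutation p = 0.0167, adjusted 0.175). Without the 2 libraries farthest from the median of the first gene named in the pair, here Bcl6, r was 0.80. Cxcr5 and Sh2d1a followed (r = 0.92, exact permutation p = 0.0222, adjusted 0.153; rho = 0.83, exact p = 0.0583, adjusted 0.245; r = 0.97 without 2). Ascl2 and Sostdc1 had r = 0.89 (exact permutation p = 0.0264, adjusted 0.153; rho = 0.89, exact p = 0.0333, adjusted 0.233; r = 0.93 without 2). Cxcr5 and Sostdc1 had r = -0.094 (exact permutation p = 0.853, adjusted 0.979; rho = -0.029, exact p = 1, adjusted 1; r = 0.12 without 2). No pair passed after adjustment, and the 6 libraries span both treatments.

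**Figure D3:**
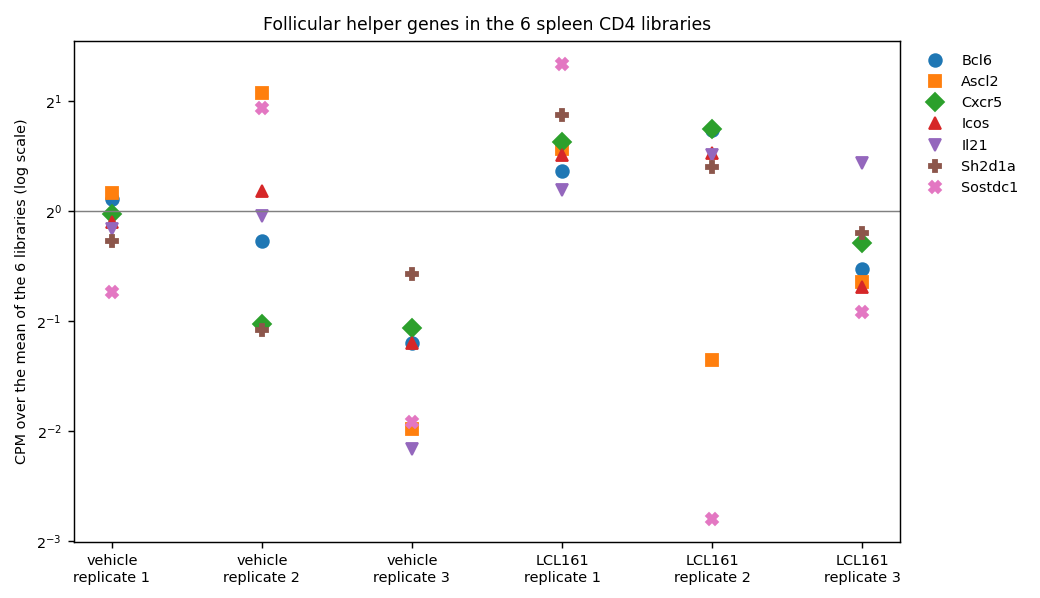
Level of each of the 7 genes in each of the 6 spleen CD4 libraries, divided by its mean over the 6 (log scale; the line marks the mean). In vehicle replicate 3 all 7 genes are below their means, and in LCL161 replicate 2 Cxcr5, Bcl6, Icos, Il21 and Sh2d1a are above theirs while Ascl2 (5.36 CPM) and Sostdc1 (26.6 CPM) are below.

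The genes most like each member in their log2 CPM over all 24 libraries were found among 9895 genes with a mean of at least 5 CPM, as a description, since the libraries share their group structure. Those of Cxcr5 were Cd22 (r = 0.94), Iglc2 (0.94) and Pou2af1 (0.93), and after the group means were removed r was 0.74, 0.45 and 0.64. Cd22 and Iglc2 are B cell genes, and the summed B cell markers stood beside Cxcr5 in the same order of tissues. Those of Il21 were Rnf128, Tox2 and Egr2 (0.94, 0.94 and 0.93, and 0.76, 0.71 and 0.59 within groups). Sostdc1 was the gene most like Ascl2 (0.89, and 0.25 within groups), followed by Itgb8 (0.87, and -0.28 within groups) and Slc7a10 (0.87, and 0.52). Izumo1r, which encodes folate receptor 4, was most like Sostdc1 (0.93, and 0.21 within groups). Itgb8 (0.93, and -0.11 within groups) and Serpina9 (0.92, and 0.43) followed. Bcl6 was most like Stard5 (0.92), Tbc1d4 (0.91) and Usp6nl (0.89), Icos like Smpdl3a (0.96), Plk3 (0.95) and Tnfsf11 (0.95), and Sh2d1a like Fyn (0.91), H2-Q2 (0.87) and Reps1 (0.87). Fyn is the kinase that SAP recruits.

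The comparison of the sorted populations asked how CD8 libraries differed from CD4 libraries. In the spleen the genes were lower in CD8 libraries, and in the tumor few differed. With vehicle, 6 of the 7 were lower in spleen CD8 than in spleen CD4 libraries by edgeR's quasi-likelihood test (Benjamini-Hochberg adjusted p below 0.05), where 6.09% of all genes tested were lower and 11.4% passed in either direction. The exception was Bcl6 (log2 fold change -0.26 ± 0.29 SE, adjusted p = 0.647, 95% interval -0.87 to 0.35), whose groups overlapped. The median log2 fold change of the 7 was -3.74, beside -0.035 over all genes tested.

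The largest of these falls were in Sostdc1 (-9.63 ± 1.52, adjusted p = 6.3e-04) and Il21 (-8.52 ± 1.56, adjusted p = 0.0015). Ascl2 had no count in spleen CD8 vehicle libraries and was at least 116-fold lower there, against a floor of 3 counts per library (edgeR adjusted p = 0.0025). Icos fell by 3.74 ± 0.52 on the log2 scale (adjusted p = 1.6e-04), Cxcr5 by 2.41 ± 0.58 (adjusted p = 0.011) and Sh2d1a by 2.08 ± 0.40 (adjusted p = 0.0025). The 7 T cell markers summed to less in spleen CD8 than in spleen CD4 vehicle libraries (1565 to 1781 against 2526 to 3352 CPM). With a covariate built from Cd3d, Cd3e and Cd3g, a part of these markers, Ascl2 (edgeR adjusted p = 0.062), Il21 (0.066) and Sh2d1a (0.12) missed the threshold. Cxcr5 missed it without spleen CD4 vehicle replicate 1 (-1.98, adjusted p = 0.059) or spleen CD8 vehicle replicate 2 (-2.21, adjusted p = 0.060). Conventional dendritic cell markers were higher in the spleen CD8 vehicle libraries (1715 to 1933 against 111 to 316 CPM), and with a covariate for them, chosen after the data were seen, none of the 6 passed. Since these sums did not overlap between the populations, that fit cannot separate the markers from the population. The part of dendritic cells in these falls was not tested.

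With LCL161 all 7 genes, Bcl6 included, were lower in spleen CD8 than in spleen CD4 libraries, where 9.48% of all genes tested were lower and 17.4% passed in either direction. Their median was -3.72, beside 0 over all genes. Bcl6 fell by 2.50 ± 0.31 on the log2 scale (edgeR adjusted p = 4.3e-05), Sostdc1 by 10.85 ± 1.67 (adjusted p = 3.2e-04), Il21 by 7.38 ± 1.39 (adjusted p = 0.0013), Ascl2 by 6.54 ± 1.52 (adjusted p = 0.0068), Icos by 3.72 ± 0.52 (adjusted p = 1.1e-04), Cxcr5 by 3.28 ± 0.61 (adjusted p = 0.0011) and Sh2d1a by 2.07 ± 0.40 (adjusted p = 0.0016).

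In the tumor with vehicle, 2 of the 7 were lower in CD8 libraries, where 2.37% of all genes tested were lower and 4.07% passed. They were Icos (-2.33 ± 0.49, edgeR adjusted p = 0.0099) and Il21 (-4.86 ± 1.36, adjusted p = 0.049). The Il21 value rested on 1 library: without tumor CD4 vehicle replicate 1 it was -1.36 (adjusted p = 0.559). Without any 1 tumor CD8 vehicle library its adjusted p was 0.127 to 0.191. Icos without tumor CD4 vehicle replicate 1 was -1.73 (adjusted p = 0.056), and without tumor CD8 vehicle replicate 1 or 3 its adjusted p was 0.078 and 0.058. Sh2d1a ran the other way, 0.86 ± 0.39 (adjusted p = 0.237), with overlapping groups. With LCL161 none of the 7 passed in edgeR, 1 did in DESeq2 (Icos, -1.43, adjusted p = 0.036, against 0.118 in edgeR) and none in limma voom, and 2 had an unadjusted p below 0.05, as had 3297 of the 20174 genes tested; 2.87% of all genes tested passed and 1.44% were lower. The difference between spleen and tumor in this contrast was not tested.

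Other genes of the program, from lists fixed with the comparisons, followed in the spleen. Beside the vehicle counts below, 6.09% of all genes tested were lower and 11.4% passed in either direction. With vehicle, 6 of 12 transcription factors of follicular helper cells were lower in spleen CD8 libraries and none higher, among them Maf (-4.76 ± 0.59, edgeR adjusted p = 5.3e-05), a factor that supports Il21 expression, Batf (-1.93 ± 0.28, adjusted p = 1.9e-04), Nfatc1 and Tox. Of 12 surface receptors 10 were lower and 1, Btla, was higher; Cd40lg, which encodes the CD40 ligand that activates B cells, had the smallest adjusted p of the list (124 CPM in spleen CD4 vehicle libraries against 1.11 CPM in spleen CD8 vehicle libraries, -6.78 ± 0.47, adjusted p = 1.2e-07). Of 8 cytokines and cytokine receptors 4 were lower, Il4, Il27ra, Il10 and Il12rb1. In the signalling below ICOS and SAP 3 of 8 were lower, Cd28, Ctla4 and Fyn. Restraints of the follicular helper fate were lower in 3 of 12 (Prdm1, Il2ra and Stat5b), and of 6 genes that are low in follicular helper cells Ccr7, the receptor that holds T cells in the T cell zone, was higher (2.55 ± 0.63, adjusted p = 0.013). The median log2 fold changes were -1.18 for the transcription factors, -1.79 for the surface receptors, -0.84 for the cytokine list, 0.14 for the signalling list, -0.0024 for the restraints and 0.30 for the genes low in these cells, beside -0.035 over all genes.

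With LCL161 the spleen counts were 6 of 12 transcription factors lower (Maf, Nfatc1, Batf and Tox with the smallest adjusted p), 9 of 12 surface receptors lower (Cd40lg, Tnfrsf4, S1pr2 and Slamf1) and 4 of 8 cytokine genes lower (Il4, Il27ra, Il6st and Il10). Of all genes tested 9.48% were lower there and 17.4% passed in either direction. Among genes low in follicular helper cells, Selplg, Il7r and Ccr7 were higher. Selplg, which encodes the selectin ligand PSGL-1, was 1346 CPM in spleen CD8 LCL161 and 527 CPM in spleen CD4 LCL161 libraries (1.35 ± 0.16, edgeR adjusted p = 2.9e-05). In the tumor with vehicle, 3 of 12 surface receptors were lower in CD8 libraries and 1, Ly9, was higher, where 2.37% of all genes tested were lower and 4.07% passed. With LCL161 3 were lower and 2, Ly9 and Slamf6, were higher, where 1.44% were lower and 2.87% passed. Cd40lg was among the lower ones under both treatments (2.63 against 171 CPM with vehicle, -6.01 ± 0.44, edgeR adjusted p = 2.3e-07). Of 12 transcription factors 2, Maf and Pou2af1, were lower in CD8 vehicle libraries. With LCL161 none of the 12 transcription factors passed in edgeR, 1 in DESeq2 and 2 in limma voom, with 3 at an unadjusted p below 0.05, as were 3297 of 20174 genes.

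The comparison of tumor with spleen found most of the 7 genes lower in tumor CD4 libraries; Icos passed under neither treatment and Il21 with LCL161 only. With vehicle 5 of the 7 genes were lower in tumor CD4 than in spleen CD4 libraries and none higher, where 6.78% of all genes tested were lower and 16.4% passed in either direction. With LCL161 it was 6 of the 7, where 11% were lower and 21.3% passed. The median log2 fold change of the 7 was -2.79 with vehicle and -4.95 with LCL161, beside 0.0035 and -0.0044 over all genes.

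The transcription factor genes were lower in tumor CD4 libraries under both treatments. Bcl6 differed by -2.05 ± 0.31 with vehicle (edgeR adjusted p = 2.3e-04) and by -3.21 ± 0.32 with LCL161 (adjusted p = 8.5e-06). Ascl2 differed by -6.11 ± 1.42 (adjusted p = 0.0075) and by -4.95 ± 1.33 (adjusted p = 0.014, and 0.0503 without tumor CD4 LCL161 replicate 1). Of the receptor genes, Cxcr5 differed by -5.42 ± 0.68 with vehicle (adjusted p = 4.5e-05), from a mean of 304 to 7.15 CPM, and by -7.13 ± 0.74 with LCL161 (adjusted p = 8.5e-06), from 629.9 to 4.48 CPM. Icos did not pass, at 0.20 ± 0.46 (adjusted p = 0.797, 95% interval -0.77 to 1.17) and -0.67 ± 0.47 (adjusted p = 0.333, interval -1.64 to 0.31).

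Il21 missed the threshold with vehicle (-2.79 ± 1.09, edgeR adjusted p = 0.086) and passed with LCL161 (-5.64 ± 1.26, adjusted p = 0.0037). Without tumor CD4 vehicle replicate 1 the vehicle value was -6.29 (adjusted p = 0.0024). Sh2d1a differed by -1.88 ± 0.40 (adjusted p = 0.0039) and -3.35 ± 0.43 (adjusted p = 5.3e-05), and Sostdc1 by -8.66 ± 1.42 (adjusted p = 6.9e-04) and -10.20 ± 1.58 (adjusted p = 3.4e-04), the latter values resting on 27 and 10 counts in 1 library of each tumor group. For the genes that passed, no tumor library reached the lowest spleen library. The B cell markers separate the same libraries: with a covariate for their summed level 1 of the 7, Sostdc1, was past the threshold under each treatment, with Cxcr5 at -2.92 (adjusted p = 0.158) and -4.25 (adjusted p = 0.095), and Bcl6 at -1.85 (adjusted p = 0.154) and -3.00 (adjusted p = 0.062). Sostdc1 with LCL161 lost its call in 1 of 18 alternatives, a fit other than this one. The share of Cxcr5 and Bcl6 reads that came from B cells was not tested.

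**Figure D4:**
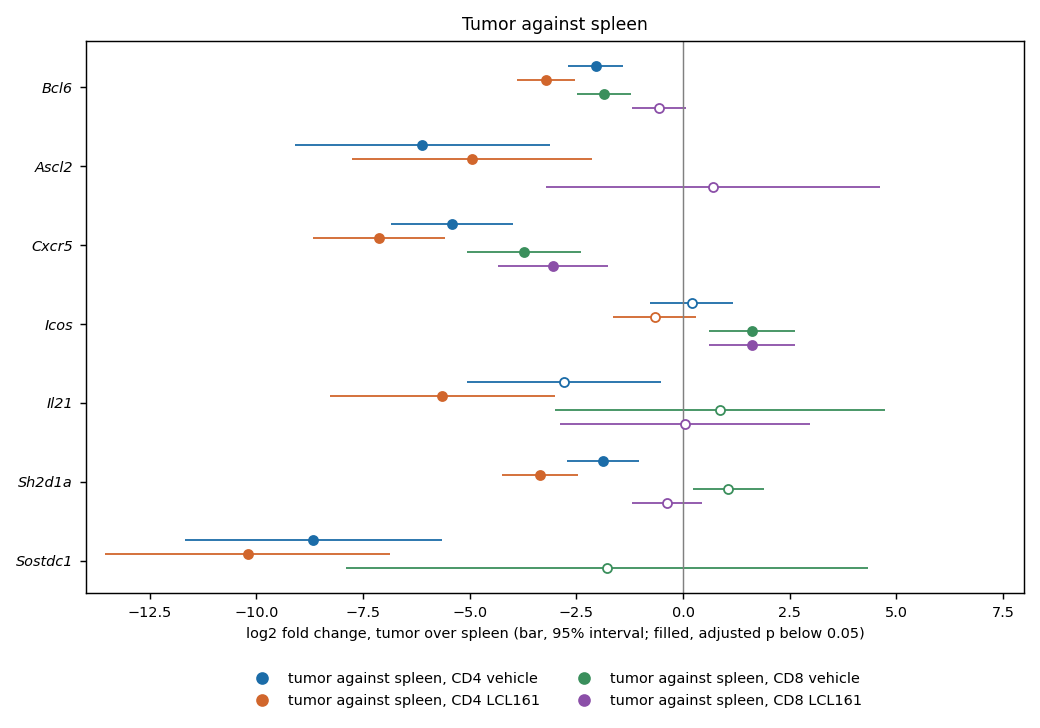
Log2 fold change of tumor over spleen for each of the 7 genes (points; bars are 95% intervals; filled points have an adjusted p below 0.05) in CD4 and CD8 libraries with vehicle and LCL161. Where a group had no count (Ascl2 in CD8 vehicle, Sostdc1 in CD8 LCL161) no point is drawn. In CD4 libraries Sostdc1 lies farthest below 0 under both treatments, followed by Ascl2 with vehicle and by Cxcr5 with LCL161. Icos lies nearest to 0 there.

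In CD8 libraries the tissues differed in another way: Cxcr5 was lower in tumor and Icos higher. Of the 7, 2 were lower and 1 higher with vehicle (14.8% of all genes tested passed) and 1 lower and 1 higher with LCL161 (8.77%). Cxcr5 differed by -3.72 ± 0.64 (edgeR adjusted p = 6.6e-04) and -3.05 ± 0.62 (adjusted p = 0.0071). Bcl6 differed by -1.86 ± 0.30 with vehicle (adjusted p = 4.7e-04) and by -0.57 ± 0.30 with LCL161 (adjusted p = 0.258), where the spleen mean was 15.7 CPM. Icos differed by 1.62 ± 0.48 under both (adjusted p = 0.029 and 0.043). In the LCL161 groups same-numbered libraries of both tissues deviated together weakly from their group means (correlations 0.112, 0.124 and 0.166). This is a hint of pairing that the labels do not give. With the number as a block Icos was at 1.52 (edgeR adjusted p = 0.052), which leaves Cxcr5 as 1 of the 7 past the threshold. Sh2d1a was at 1.06 ± 0.39 with vehicle (adjusted p = 0.079) and passed in DESeq2 (adjusted p = 0.047) and limma voom (adjusted p = 0.011). The CD8 calls depended on the setting: with a covariate for B cell or for T cell markers none of the 7 passed under either treatment, and Icos lost its call in most fits that left out 1 of the 6 libraries compared, all but the one without spleen CD8 vehicle replicate 2 (adjusted p 0.053 to 0.131 in the others) and the one without spleen CD8 LCL161 replicate 3 (adjusted p 0.058 to 0.197 in the others). The 7 T cell markers, of which the T cell covariate used Cd3d, Cd3e and Cd3g, summed to 1565 to 2633 CPM in spleen CD8 and 3027 to 3489 CPM in tumor CD8 libraries.

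Among the further lists, transcription factors and cytokine genes of the program were also lower in tumor CD4 libraries. Beside the counts below, 6.78% of all genes tested were lower with vehicle and 11% with LCL161. With vehicle 5 of 12 transcription factors were lower and none higher (Pou2af1 -3.39 ± 0.63, Nfatc1 -1.02 ± 0.21, Id3 -2.29 ± 0.49 and Tox -2.32 ± 0.57, edgeR adjusted p 0.0014 to 0.0097). With LCL161 9 were lower (Nfatc1, Pou2af1, Id3 and Irf4 with the smallest adjusted p) and 1, Rora, was higher (1.81 ± 0.39, adjusted p = 0.0028, named after its value was seen). Pou2af1 is also a B cell gene. Of 8 cytokine genes 3 were lower and 1 higher with vehicle: Il6st (-2.59 ± 0.36, adjusted p = 1.0e-04), the shared chain of the IL-6 receptor, Il10 (-5.12 ± 1.05) and Il4 (-3.11 ± 0.67) fell and Il2, whose signal restrains the follicular helper fate, rose (1.51 ± 0.40, adjusted p = 0.015). With LCL161 5 were lower and 1 higher, with Il6ra (-3.52 ± 0.60, adjusted p = 5.2e-04) among the former. The median log2 fold changes were -0.91 and -1.82 for the transcription factors and -0.86 and -1.93 for the cytokine list.

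Of 12 surface receptors 5 were lower and 1 higher with vehicle (Cd200, Btla, Ly9 and Slamf6 fell, with the smallest adjusted p) and 6 were lower with LCL161, led by Slamf6 (222 against 21.7 CPM, -3.36 ± 0.31, edgeR adjusted p = 6.4e-06), a SLAM family receptor that signals through SAP. Of 12 restraints of the fate 1 was higher and 1 lower with vehicle and 2 and 2 with LCL161, beside 16.4% and 21.3% of all genes, so that the vehicle share is near the background. Id2, which opposes the follicular helper program, rose (1.08 ± 0.26, adjusted p = 0.0081, and 1.59 ± 0.26, adjusted p = 3.9e-04) and Foxp1 fell (-1.24 ± 0.21 and -1.21 ± 0.21) under both treatments, and Il2ra rose and Stat5a fell with LCL161. In the signalling list Fyn fell under both (779 to 422 CPM with vehicle, adjusted p = 0.0012, and 825 to 412 CPM with LCL161, adjusted p = 3.4e-04) and Prkcq fell with vehicle. Among genes low in follicular helper cells, Selplg rose under both treatments and Il7r rose with LCL161.

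In CD8 libraries the tumor values of these lists went both ways. Of all genes tested 14.8% passed with vehicle and 8.77% with LCL161. Maf rose in tumor CD8 libraries under both treatments (2.50 ± 0.55, edgeR adjusted p = 0.0042, and 2.42 ± 0.56, adjusted p = 0.013), as did Rora (1.78 ± 0.39 and 1.65 ± 0.38), while Pou2af1 fell (-5.14 ± 0.69 and -4.31 ± 0.66). Prdm1 (1.57 ± 0.38) and Il2ra (1.99 ± 0.58) rose with vehicle. Of 12 surface receptors 2 rose and 1 fell with vehicle, and 5 rose and 2 fell with LCL161, led by Tnfrsf4, which encodes OX40 (3.09 ± 0.51, adjusted p = 0.0025), and Btla, which fell (-1.92 ± 0.33, adjusted p = 0.0031).

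LCL161 was compared with vehicle in each population, and among the 7 genes only Bcl6 in spleen CD8 libraries passed. In spleen CD8 LCL161 libraries Bcl6 was 15.7 ± 2.94 CPM (SD, n = 3) against 47.6 ± 1.32 CPM with vehicle, a log2 fold change of -1.60 ± 0.30 (edgeR adjusted p = 0.0048, 95% interval -2.23 to -0.97), lower in 3 of 3 libraries. In that comparison 8.28% of all genes tested passed, so that 1 of 7 is near the background. Conventional dendritic cells, some of which express Bcl6, had markers (7 of 7 detected) whose summed level was 1715 to 1933 CPM with vehicle and 344 to 606 CPM with LCL161. Germinal center B cell markers were 211 to 281 and 62.4 to 184 CPM. With the dendritic cell sum as a covariate, chosen after the data were seen, Bcl6 was at -1.81 (edgeR adjusted p = 0.045), and with the B cell sum at -1.59 (adjusted p = 0.0057). The dendritic cell sums did not overlap between the treatments, so that fit cannot separate them from LCL161. Their part in the Bcl6 values was not tested.

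Sh2d1a in the same comparison was 77.7 ± 16.9 against 37.8 ± 10.5 CPM (1.04 ± 0.39, edgeR adjusted p = 0.106, 95% interval 0.21 to 1.87). It passed in limma voom (0.97, adjusted p = 0.017) and in a fit to the 6 libraries compared (adjusted p = 0.044). Cxcr5 (0.18 ± 0.56, adjusted p = 0.870), Icos (0.50 ± 0.48, adjusted p = 0.542), Il21 (2.05 ± 1.68, adjusted p = 0.462) and Sostdc1 (-1.02 ± 2.66, adjusted p = 0.839) did not pass. Ascl2 had 0 to 5 counts in these libraries, and no fold is given.

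In spleen CD4 libraries, where the program was highest, none of the 7 passed in edgeR, DESeq2 or limma voom, and 2, Sh2d1a and Bcl6, had an unadjusted p below 0.05, as had 3209 of the 20174 genes tested; 0.431% of all genes tested passed after adjustment. Sh2d1a was 327 ± 117 CPM with LCL161 against 160.3 ± 43.3 CPM with vehicle (1.03 ± 0.39, edgeR adjusted p = 0.221, 95% interval 0.21 to 1.85), higher in 3 of 3 libraries. Bcl6 was at 0.64 ± 0.29 (adjusted p = 0.298, interval 0.023 to 1.25), Cxcr5 at 1.05 ± 0.56 (adjusted p = 0.356, interval -0.12 to 2.23) and Il21 at 0.91 ± 1.02 (adjusted p = 0.675, interval -1.22 to 3.04). Icos was at 0.47 ± 0.46, Sostdc1 at 0.21 ± 0.94 and Ascl2 at -0.47 ± 1.06, with adjusted p of 0.625 to 0.937 and overlapping groups. The intervals of Sh2d1a and Bcl6 lie above 0, without adjustment, and those of the other 5 span it. The median of the 7 was 0.64, beside 0.021 over all genes. Other markers moved with the treatment in these libraries: regulatory T cell markers (7 of 7 detected) summed to 327 to 427 CPM with vehicle against 591 to 884 CPM with LCL161, and gamma delta T cell markers (6 of 6 detected) to 286 to 1632 against 74.4 to 185 CPM. Their part in the values of the 7 genes was not tested.

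**Figure D5:**
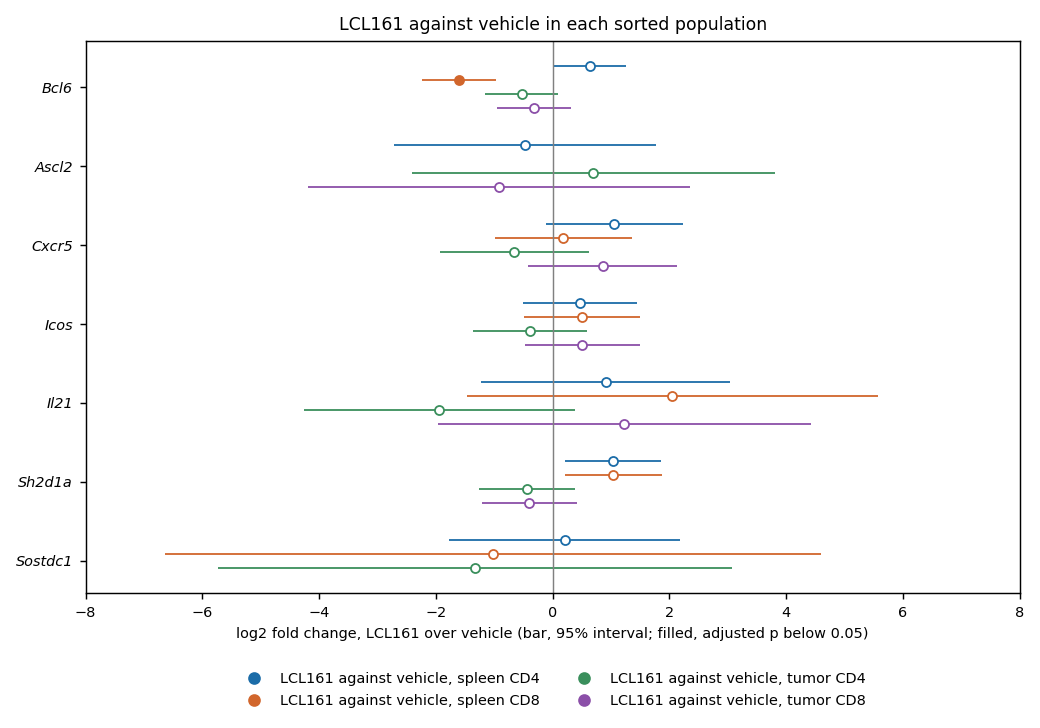
Log2 fold change of LCL161 over vehicle for each of the 7 genes (points; bars are 95% intervals; filled points have an adjusted p below 0.05) in each tissue and population. Where a group had no count (Ascl2 in spleen CD8, Sostdc1 in tumor CD8) no point is drawn; Bcl6 in spleen CD8 (-1.60) is the only filled point.

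In tumor CD4 libraries none of the 7 passed in edgeR, DESeq2 or limma voom and none had an unadjusted p below 0.05 (2836 of the 20174 genes tested had), with 0.322% of all genes tested past the adjusted threshold. Bcl6 was 9.55 ± 2.63 CPM with LCL161 and 13.8 ± 0.919 CPM with vehicle, groups that did not overlap (-0.53 ± 0.30, edgeR adjusted p = 0.444). Il21 was at -1.94 ± 1.11 (adjusted p = 0.450), where vehicle replicate 1 again set the vehicle mean. Monocyte and macrophage markers were 2338 to 5897 CPM in these vehicle libraries and 664 to 1317 CPM with LCL161; their part in these values was not tested. In tumor CD8 libraries none of the 7 passed in edgeR, DESeq2 or limma voom and none had an unadjusted p below 0.05 (2168 of 20174 had), with 0.248% of all genes past the adjusted threshold, and values ran from -0.92 ± 1.55 (Ascl2) to 1.23 ± 1.53 (Il21).

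Few genes of the further lists passed for LCL161 in edgeR. In spleen CD8 their number over the 6 lists was not above the 8.28% of all genes that passed: 1 of 12 transcription factors, 1 of 8 cytokine genes, 1 of 8 signalling genes and none of the other 3 lists. Other tools called more there. DESeq2 called 1 transcription factor, 2 restraints, 0 surface receptors, 3 cytokine genes, 4 signalling genes and 0 genes low in follicular helper cells. Limma voom called 3, 4, 3, 4, 4 and 1. The share of all genes called by these 2 tools is not given here. Batf, a factor needed for Bcl6 and Maf expression in these cells, rose in spleen CD4 (359 against 144 CPM, 1.32 ± 0.27, edgeR adjusted p = 0.038) and in spleen CD8 libraries (96.8 against 37.8 CPM, 1.36 ± 0.27, adjusted p = 0.0067), 1 of 12 transcription factors in each. Tnfrsf4, which encodes the costimulatory receptor OX40, was 116, 166 and 50.8 CPM in spleen CD4 vehicle libraries and 920.3, 422 and 347 CPM with LCL161 (2.34 ± 0.47, adjusted p = 0.037), 1 of 12 surface receptors. Selplg fell in spleen CD4 (977 to 527 CPM, -0.89 ± 0.16, adjusted p = 0.026), 1 of 6 genes low in follicular helper cells. Limma voom called no gene of these 3 lists in spleen CD4, so the calls of Batf, Tnfrsf4 and Selplg there were lost in it. In spleen CD8 libraries Il27ra rose (0.59 ± 0.18, adjusted p = 0.047) and Pik3cd, the kinase subunit below ICOS, fell (-0.60 ± 0.16, adjusted p = 0.030). In tumor CD4 libraries Slamf6 fell (78.8 to 21.7 CPM, -1.86 ± 0.30, adjusted p = 0.023). No gene of the 6 lists passed in tumor CD8 in edgeR; at an unadjusted p below 0.05, where 2168 of the 20174 genes tested lay, were 3 transcription factors, 3 restraints, 4 surface receptors, 2 cytokine genes, 5 signalling genes and 3 genes low in these cells, and DESeq2 called 0, 1, 2, 0, 2 and 0 and limma voom 0, 2, 3, 1, 4 and 2.

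The effect of LCL161 was then compared between populations and tissues. Among the 7 genes and 4 such differences, Bcl6 between spleen CD8 and spleen CD4 passed: the LCL161 effect was -1.60 in CD8 and 0.64 in CD4, a difference of -2.24 ± 0.42 (edgeR adjusted p = 0.028), where 0.292% of all genes tested passed. It stood at an adjusted p of 0.0502 to 0.117 when 1 of 8 of the 12 spleen libraries was left out (CD4 vehicle replicates 2 and 3, CD4 LCL161 replicates 1 and 2, any CD8 vehicle library, or CD8 LCL161 replicate 3), with values of -2.30 to -1.95. None of the 7 passed for tumor minus spleen in CD4 (0.00991% of all genes passed; 2 of the 7 and 2066 of 20174 genes at an unadjusted p below 0.05; 0 in DESeq2 and 0 in limma voom), where Bcl6 was at -1.17 ± 0.42 (adjusted p = 0.389) and Sh2d1a at -1.47 ± 0.55 (adjusted p = 0.404). None passed for tumor minus spleen in CD8 (0.0248%; 2 of the 7 and 1823 of 20174 genes at an unadjusted p below 0.05; 0 in DESeq2 and 0 in limma voom), where Bcl6 was at 1.29 ± 0.42 (adjusted p = 0.371). None passed for CD8 minus CD4 in the tumor (0% of all genes; 0 of the 7 and 1116 of 20174 genes at an unadjusted p below 0.05; 0 in DESeq2 and 0 in limma voom).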

How the data were processed

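The series holds 1 table of expected counts per gene symbol in 24 libraries, as deposited by the authors; per the submitters' processing notes, reads were trimmed with cutadapt and aligned with STAR 2.7.3a to GRCm38, while the sources used here name no counting tool, annotation or strand setting. Since 52.7% of the non-zero values were not whole, the values were rounded before testing. The labels' protocols name total RNA from a Qiagen kit and Illumina sequencing.

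Genes passing edgeR's filterByExpr (minimum count 10; 20174 genes) were scaled by TMM (factors 0.94 to 1.05) and fitted in edgeR 4.0.16 (R 4.3.3, robust quasi-likelihood, 1 mean per group, 16 residual degrees of freedom, common coefficient of biological variation 0.326). The 16 comparisons were 12 between groups and 4 differences of effects, each adjusted by Benjamini-Hochberg over all genes tested, with a threshold of 0.05. P-values measure the spread between libraries, which may be technical. No 2 libraries of a group agreed within sampling noise (chi-square per gene 13.0 to 134.9). CPM were computed on library sizes multiplied by the TMM factors; 3 counts per library served as the floor, for counting error only.

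The 7 genes and all lists were chosen with earlier results of these data known. All 7 are named in every comparison, and of each list up to 4 genes with the smallest adjusted p among those that passed; likeness names the 3 genes with the highest correlation. Some results for genes of these lists are not reported here. Same-numbered libraries deviated together most clearly in tumor against spleen in CD8 LCL161 (correlations of deviations from group means 0.112, 0.124 and 0.166), as a hint from the data and not from the labels. Alternatives were limma voom (3.58.1), DESeq2 (1.42.0), other scaling and filters, fits to the libraries compared, replicate blocks, marker covariates and leaving out each library. The scripts were tested on simulated data. Gene positions come from GENCODE M21.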

Additional observations from a re-analysis of the deposited data

Results flagged for a closer look

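The effect of LCL161 on Bcl6 differed between the spleen populations. It was -1.60 ± 0.30 (log2, SE) in CD8 and 0.64 ± 0.29 in CD4 libraries, and the difference of -2.24 ± 0.42 passed the test of the difference itself (edgeR adjusted p = 0.028). In spleen CD8 all 3 LCL161 libraries were below all 3 vehicle libraries, whereas the spleen CD4 groups overlapped. The call was lost in 10 of 24 alternatives, among them 8 of the 12 fits that left out 1 spleen library (adjusted p 0.0502 to 0.117). Conventional dendritic cell markers summed to 1715 to 1933 CPM in the spleen CD8 vehicle libraries and 344 to 606 CPM with LCL161. With their sum as a covariate, chosen after the data were seen, the difference was -2.37 (edgeR adjusted p = 0.020). As the sums did not overlap between the treatments, that fit cannot separate them from LCL161. The part of dendritic cells in the Bcl6 values was not tested.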

How the results depend on the processing

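The number of the 7 members past the threshold was most sensitive to covariates for summed marker levels. With the B cell covariate it went from 5 to 1 (tumor against spleen, CD4 vehicle), from 6 to 1 (CD4 LCL161), from 3 to 0 (CD8 vehicle) and from 2 to 0 (CD8 LCL161). With the T cell covariate both CD8 tissue counts went to 0, and CD8 against CD4 in spleen vehicle went from 6 to 3. With the dendritic cell covariate, chosen after the data were seen, that count went to 0, CD8 against CD4 in tumor vehicle from 2 to 0, and both CD8 tissue counts to 1. DESeq2 raised CD8 against CD4 in tumor LCL161 from 0 to 1. Limma voom gave 1 for CD8 against CD4 in tumor vehicle and 2 for LCL161 in spleen CD8 (from 1). For tumor against spleen it gave 5 in CD4 LCL161 (from 6) and 4 in CD8 vehicle (from 3). Without a filter, CD8 against CD4 in tumor vehicle and the tissue count in CD8 LCL161 were 1 each. Fits to only the libraries compared gave 0 for CD8 against CD4 in tumor vehicle, 2 for LCL161 in spleen CD8, 0 (from 1) for the difference of LCL161 effects between spleen populations and 1 (from 0) for that between tissues in CD8. Leaving out 1 library gave 0 to 2 for CD8 against CD4 in tumor vehicle, 0 to 1 for the spleen difference and 1 to 2 for the CD8 LCL161 tissue count. The cause of these shifts was not tested, except that fits to fewer libraries have fewer degrees of freedom. Where summed markers did not overlap between the groups compared, a covariate for them cannot be separated from the contrast. Outside tumor against spleen in CD8 LCL161, correlations of deviations from group means between same-numbered libraries were -0.17 to 0.11, and the numbers were not taken to pair them there. All 3 pairs were nonetheless weakly positive in 3 comparisons. These were CD8 against CD4 in spleen vehicle (0.041 to 0.085) and tumor against spleen in CD8 vehicle (0.017 to 0.063) and in CD4 LCL161 (0.0048 to 0.112). Pairing there was not settled. With the replicate block, and with the block within treatment, CD8 against CD4 in tumor vehicle and the CD8 LCL161 tissue count were 1 each, and within treatment the spleen difference was 0. Over single members and alternatives, 2052 values stayed on the same side of the threshold, 77 lost it, 10 gained it and none of those past it changed sign. RLE scaling, no scaling and a filter of 5 CPM moved none of 112 values each across it.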
